A study of Mus musculus with 3 samples.

Results

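Sox9, Sox8, Nfia, Nfib, Nfic, Nfix, Zbtb20 and Rfx4 are transcription factor genes tied to the onset of gliogenesis and to astrocyte identity. Their signal was read on 3 arrays of mouse embryonic stem cell-derived astrocytes. Members were found by name: every probe set that the platform annotation assigns to exactly 1 gene, that gene being on the list. All 8 genes were found, with 38 probe sets in all, out of 18194 genes and 45101 probe sets on the array. The 4 Nfi genes held 23 of the 38.

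All samples belong to a single wild-type group, with no treatment contrast, no age and no allele given. Mouse embryonic stem cells had passed through embryoid bodies for 4 days and a selection medium for neural precursors for 5 to 7 days. The precursors were kept in FGF2 and EGF2, as the label names them, to 18 passages from embryoid body formation. Astrocytes were then obtained over 5 days without the growth factors and with 5% fetal bovine serum. The labels name neither the embryonic stem cell line nor separate cultures, so p-values speak only for the variation among these 3 samples, possibly technical in part.

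In the developing neural tube and forebrain, precursors first make neurons and then switch to glia. Sox9 drives this switch and turns on Nfia, and both proteins then act together on early glial genes. NFI proteins bind DNA as dimers and open astrocyte genes such as Gfap. Zbtb20 promotes astrocyte formation in the cortex, and Rfx4 belongs to a family known for cilium genes and is needed for dorsal patterning of the brain.

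The platform was the Affymetrix Mouse Genome 430 2.0 array, with 1 colour, and levels are given as log2 of the deposited intensity, as mean ± SD (n = 3). Probe sets differ in brightness, so levels are not ranked across genes or across probe sets. Background was taken from 77 chemosensory receptor genes (the olfactory, vomeronasal, taste and trace-amine families). On each array the limit was set at the 95th percentile of these genes, which came to 3.99, 4.10 and 4.07 on replicates 1, 2 and 3, with a mean of 4.05. A gene or probe set is called above background where limma's one-sided test of its distance over the limit gave a Benjamini-Hochberg adjusted p below 0.05. In bulk samples fewer expressing cells and less RNA per cell cannot be told apart.

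Replicate 3 stood apart in the array's control probe sets, which read the 3' and the 5' part of the same transcript. The 3' over 5' ratio of Actb was 1.12, 1.17 and 1.97 on replicates 1, 2 and 3, and that of Gapdh was 0.769, 0.770 and 1.24. For the bacterial control transcript thr, of the kind added before labelling, it was 1.92, 1.98 and 8.12. The ratio was highest on replicate 3 for both mouse transcripts and for all 4 such bacterial controls (dap, lys, phe and thr). Controls of the kind added already labelled at hybridisation had ratios of 0.920, 1.06 and 1.15 for bioB, 0.921, 1.17 and 1.16 for bioC and 1.29, 1.35 and 1.31 for cre. Of these 3, bioB was also highest on replicate 3. The median intensity of all probe sets was 20.02, 23.3 and 19.4.

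**Figure D1:**
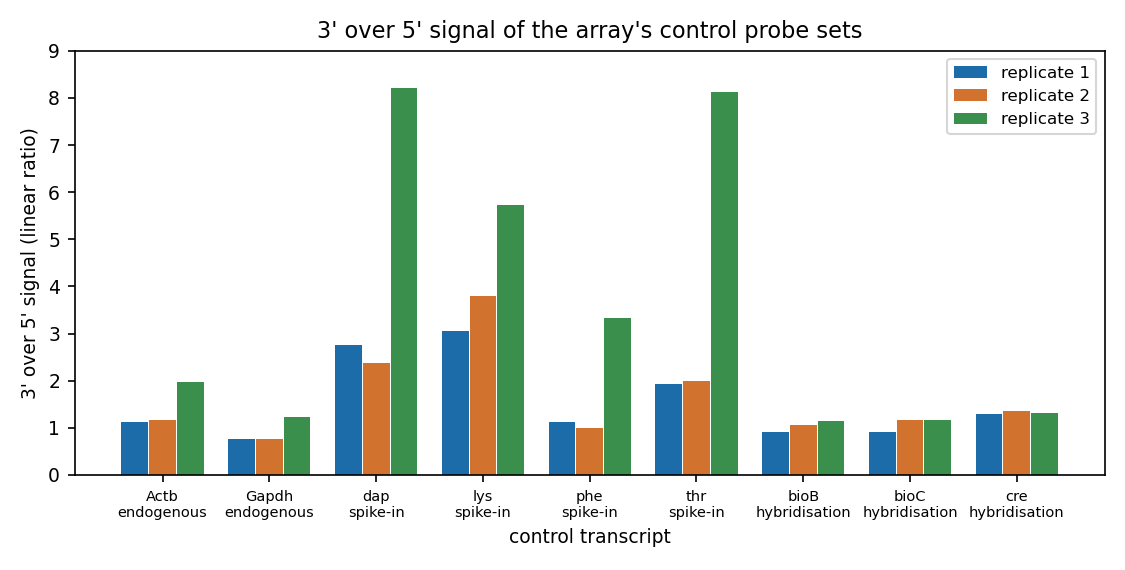
Ratio of 3' to 5' signal (linear, y axis from 0) for 9 control transcripts on each array, 1 bar per array. Replicate 3 is highest for Actb, Gapdh, dap, lys, phe, thr and bioB, with 8.12 for thr and 1.15 for bioB, and it is not the highest for bioC and cre.

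All 8 genes were above background by limma. Across the whole array 58.3% of 18117 genes tested were, so a gene picked without regard to function would often pass too. The share also depends on how many probe sets a gene has, because the brightest one stands for the gene. It was 41.7% for genes with 1 probe set, 71.6% for genes with 2 to 3 and 88.2% for genes with 4 or more. Nfia, Nfib, Nfic, Nfix and Zbtb20 fall in the last class, Sox9 and Rfx4 in the middle one and Sox8 in the first. The median distance over the limit was 5.96 log2 units for the 8 genes and 1.76 for all genes tested. These 2 medians were not matched for the number of probe sets per gene, and probe sets differ in brightness. Without replicate 3, or without replicate 2, the count was 7, with Sox8 as the gene lost.

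**Figure D2:**
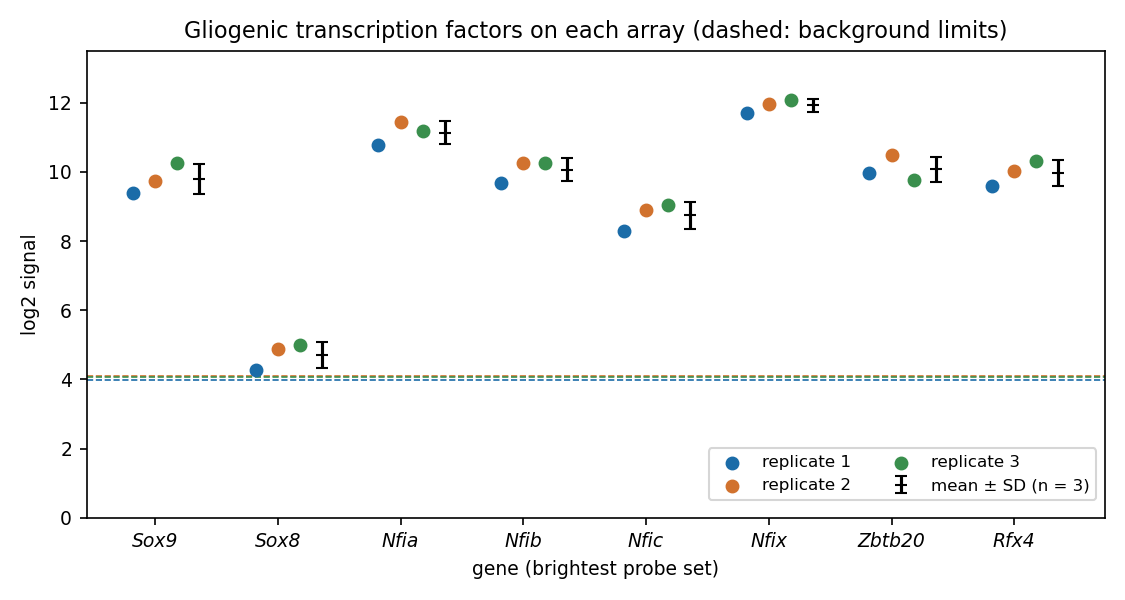
Log2 signal of the brightest probe set of each gene (x axis) on replicates 1, 2 and 3 (coloured circles), with mean ± SD (black, n = 3) and the background limit of each array (dashed lines, 3.99 to 4.10). Sox8 sits just over the limits at 4.27 to 4.99, and the other 7 genes lie at 8.30 or higher on every array.

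Sox9, an HMG-box factor of the SoxE group, was clearly above background. Its brightest probe set, 1451538_at, read 9.38, 9.74 and 10.26 log2 units on replicates 1, 2 and 3, and the mean was 9.79 ± 0.44. This lay 5.74 log2 units over the limit (95% interval 5.12 to 6.36, limma adjusted p = 6.3e-05). The probe set was lowest on replicate 1 and highest on replicate 3. A second probe set listed for the same accession, 1424950_at, read 9.22, 9.33 and 9.13, with an SD of 0.10. The array order of the 2 probe sets was not shared: replicate 3 was the highest array for 1451538_at and the lowest for 1424950_at. The third, 1433889_at, read 4.44, 5.36 and 4.28 and was not above background (limma adjusted p = 0.0834 over all probe sets).

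Sox8, a close relative of Sox9 that shares some of its roles in glia, was near the detection limit. It has a single probe set, 1435438_at, which read 4.27, 4.87 and 4.99 log2 units, with a mean of 4.71 ± 0.38. All 3 arrays lay over their own limit. The mean was 0.66 log2 units over it, with a 95% interval of 0.11 to 1.20 (limma adjusted p = 0.0256). Without replicate 2 the adjusted p was 0.117, without replicate 3 it was 0.0894, and with the limit at the 99th percentile it was 0.181. Sox10, the remaining SoxE gene and a factor of oligodendrocytes and neural crest, read 4.60, 4.51 and 4.80, a mean of 4.64 ± 0.15. It was 0.58 log2 units over the limit (limma adjusted p = 0.0149), on 1 of its 3 probe sets. Thus the SoxE group held 1 gene well over the limit and 2 within 1 log2 unit of it. With the limit at the 99th percentile, or without replicate 2, Sox9 alone of the 3 passed.

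The 4 Nfi genes, which encode the NFI family of dimeric factors, were all above background. Nfia, the member first linked to the onset of gliogenesis, read 10.77, 11.44 and 11.19 log2 units with 1456087_at, a mean of 11.14 ± 0.34. Nfib, needed for glial development in the forebrain, read 9.69, 10.24 and 10.26 with 1427680_a_at, a mean of 10.06 ± 0.33. These lay 7.08 log2 units (95% interval 6.58 to 7.58) and 6.01 log2 units (5.52 to 6.49) over the limit. Both genes were lowest on replicate 1 in these probe sets.

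Nfic, best known for its role in tooth root formation, read 8.30, 8.89 and 9.05 log2 units with 1435527_at, a mean of 8.75 ± 0.39. Nfix, which acts in neural stem cells and muscle, read 11.71, 11.97 and 12.08 with 1436363_a_at, a mean of 11.92 ± 0.19. The distance over the limit was 4.69 (95% interval 4.14 to 5.25) for Nfic and 7.87 (7.48 to 8.26) for Nfix. For both, replicate 1 was lowest and replicate 3 highest. The largest limma adjusted p among the 4 Nfi genes was 7.5e-05.

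Of the 23 Nfi probe sets, 16 were above background (69.6%), against 52.2% of the 34873 probe sets tested on the array. For all 8 genes it was 28 of 38 (73.7%). The 7 that did not pass belonged to every Nfi gene, so for each of them the array holds both bright and dim readings of 1 gene.

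Nfia had 4 of 6 probe sets above background. Besides 1456087_at, 1421163_a_at read 9.70, 10.15 and 9.30, 1446990_at read 9.12, 9.64 and 8.54, and 1438236_at read 7.999, 8.65 and 7.27. In these 3 probe sets replicate 2 was highest and replicate 3 lowest. The same low replicate 3 was seen in the 2 that did not pass: 1421162_a_at read 6.15, 6.27 and 4.02, and 1427733_a_at read 5.16, 5.08 and 3.70. Both lay over the limit on replicates 1 and 2 and below it on replicate 3. Without replicate 3 both passed, 2.17 and 1.08 log2 units over the limit (limma adjusted p = 0.00322 and 0.0136). The suffix a_at marks probe sets designed to match several transcripts of 1 gene.

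Nfib had 6 of 7 probe sets above background. 1454834_at read 9.46, 9.85 and 9.81, and 1448288_at read 8.29, 8.78 and 8.42. 1434102_at read 7.95, 8.26 and 7.97. These 3 were lowest on replicate 1, and their SD lay between 0.17 and 0.25. Larger spreads were seen in 1434101_at, at 7.23, 7.59 and 6.07, and in 1438244_at, at 6.15, 7.30 and 5.79, both lowest on replicate 3. The probe sets 1434101_at, 1434102_at and 1454834_at are listed for the same accession. Still, 1434101_at differed in array order from 1434102_at and 1454834_at, which shared theirs. The probe set that did not pass, 1416293_at, read 4.71, 3.91 and 3.63 and was over the limit only on replicate 1.

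Nfic passed on 2 of 5 probe sets. The second, 1429148_at, read 5.65, 6.06 and 6.35, in the same array order as 1435527_at. 1422565_s_at read 5.02, 4.83 and 2.72, and 1450661_x_at read 4.16, 3.72 and 1.92; both are listed for the RefSeq transcript of Nfic, and their suffixes mark probes that may match other transcripts. In these 2, replicate 3 was lower than the mean of the other arrays by 2.20 and 2.02 log2 units. 1427665_a_at read at most 2.79, below the limit on every array. With the median of the 5 probe sets in place of the brightest, Nfic was 0.18 log2 units over the limit and no longer passed (limma adjusted p = 0.672), whereas without replicate 3 1422565_s_at passed at 0.88 log2 units over it (adjusted p = 0.0253).

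Nfix passed on 4 of 5 probe sets. 1436364_x_at read 11.39, 11.62 and 11.81, and 1423493_a_at read 11.05, 11.28 and 10.98. 1459909_at read 6.14, 6.47 and 5.93. The fifth, 1451443_at, read 0.89, 1.99 and 1.71, far below the limit of every array. In the 4 probe sets that passed, the SD over arrays was 0.16 to 0.27, against 0.17 to 0.79 in the 6 of Nfib.

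**Figure D3:**
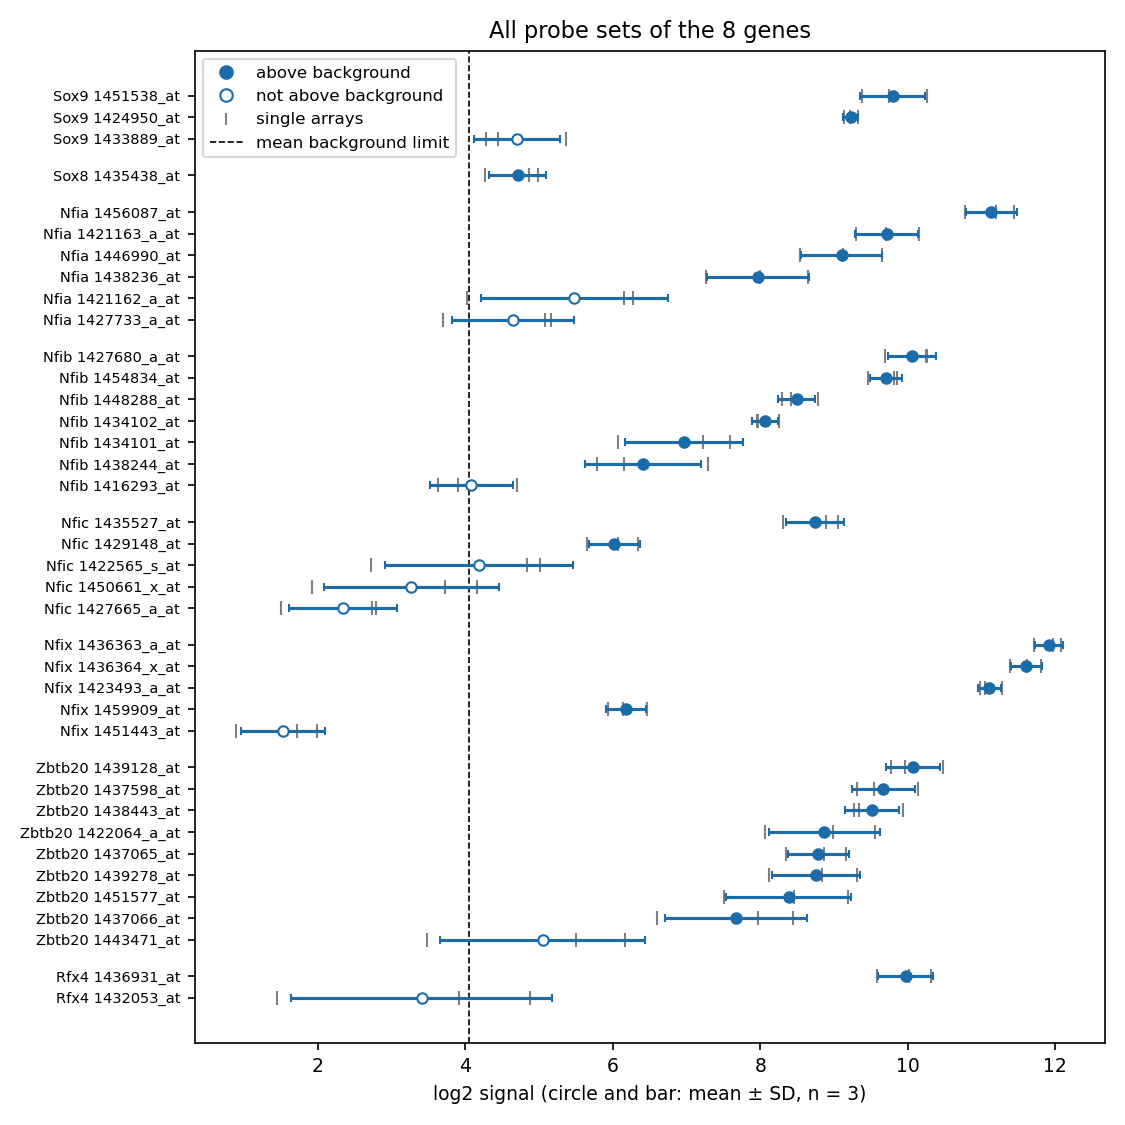
Log2 signal (x axis) of all 38 probe sets, 1 row each, grouped by gene: circles and bars are mean ± SD (n = 3), grey ticks are single arrays, and filled circles are above background. Of 38 probe sets 28 are filled, and the 5 widest bars (SD 1.19 to 1.77) belong to open circles of Nfia, Nfic, Zbtb20 and Rfx4.

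Zbtb20, a BTB zinc-finger repressor, was above background on 8 of 9 probe sets. The brightest, 1439128_at, read 9.97, 10.47 and 9.77 log2 units, a mean of 10.07 ± 0.36. It lay 6.02 log2 units over the limit (95% interval 5.46 to 6.57, limma adjusted p = 4.9e-05). The next 2, 1437598_at and 1438443_at, read 9.54, 10.14 and 9.32, and 9.27, 9.94 and 9.34. At the other end, 1437066_at read 7.97, 8.45 and 6.59, and 1443471_at, the one that did not pass, read 5.50, 6.16 and 3.49. Replicate 2 was highest in all 9 probe sets, and replicate 3 was lowest in 8 of them. Without replicate 3, 1443471_at passed as well, 1.79 log2 units over the limit (limma adjusted p = 0.0120).

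Rfx4, an RFX factor of the neural tube and, in mouse brain, of astrocytes and radial glia, was above background on 1 of 2 probe sets. 1436931_at read 9.58, 10.02 and 10.32 log2 units, a mean of 9.97 ± 0.37 and 5.92 over the limit (95% interval 5.38 to 6.46, limma adjusted p = 4.8e-05). The second, 1432053_at, read 3.91, 4.88 and 1.44, with an SD of 1.77. Replicate 3 was thus the highest array for the bright probe set and the lowest for the dim one, which passed the limit on replicate 2 only. With the median of both probe sets Rfx4 was 2.66 log2 units over the limit and still passed (limma adjusted p = 0.00332).

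Which array was lowest differed between probe sets of the same gene for Sox9, Nfia, Nfib, Nfic, Nfix, Zbtb20 and Rfx4. Of the 28 probe sets above background, 15 were lowest on replicate 3 and 13 on replicate 1, while over the whole array 26% of the probe sets above background were lowest on replicate 3. Replicate 3 minus the mean of replicates 1 and 2 had a median of -0.22 log2 units over the 28, and of 0.18 over all 18216 probe sets above background. It was below 0 in 18 of the 28 (64.3%) and in 33.7% of all. For Zbtb20 all 8 probe sets above background were below 0, with a median of -0.81 and a range of -1.62 to -0.26. For Nfia the range was -1.06 to 0.09, for Nfib -1.34 to 0.29 and for Nfix -0.37 to 0.30. Both Nfic probe sets above background, at 0.46 and 0.49, and those of Sox8 and Rfx4, at 0.42 and 0.52, were above 0. The probe sets of a gene share its RNA and are no replicates. Replicate 3 was also the array with the raised 3' over 5' control ratios, whose part in these values was not tested.

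**Figure D4:**
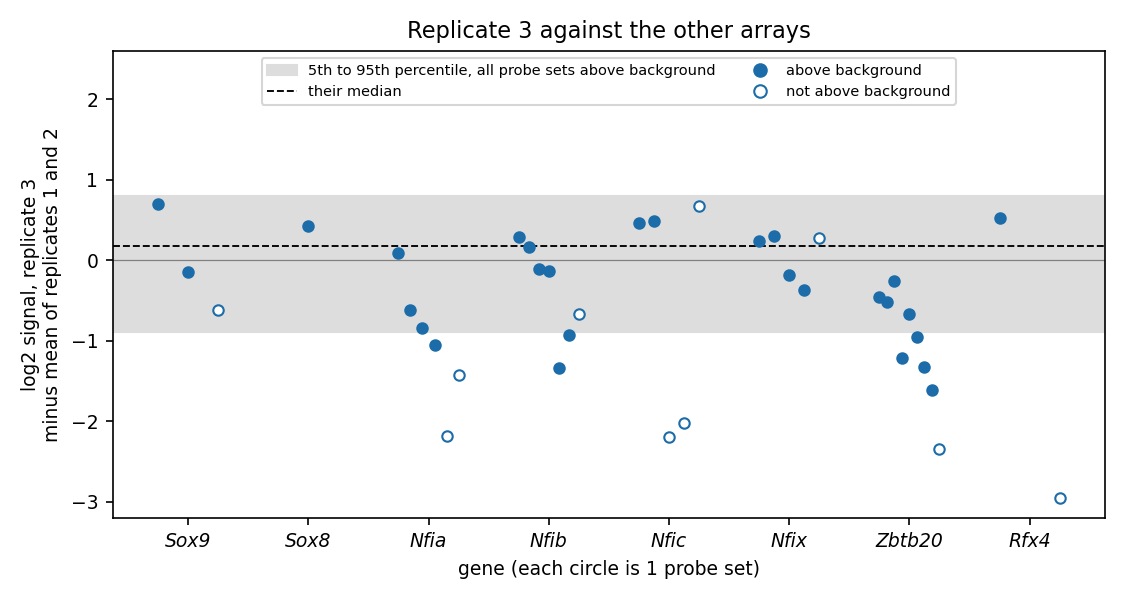
Log2 signal on replicate 3 minus the mean of replicates 1 and 2 (y axis) for each probe set of the 8 genes, filled where above background. The dashed line is the median of all probe sets above background (0.18) and the grey band their 5th to 95th percentile (-0.90 to 0.80). All 9 Zbtb20 circles lie below 0, and the lowest circle is the dim Rfx4 probe set at -2.95.

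By median SD, the brightest probe sets of the members spread more between arrays than genes above background in general. The SD of these probe sets ran from 0.19 for Nfix to 0.44 for Sox9, with a median of 0.37 log2 units. The median SD of the 10568 genes above background was 0.24. Arrays differed in overall signal: the median deviation of the genes above background was -0.18, 0.02 and 0.16 on replicates 1, 2 and 3. After subtracting it, Nfix deviated from its mean by -0.03, 0.03 and 0.00 log2 units, while Zbtb20 deviated by 0.08, 0.39 and -0.47 and Sox9 by -0.23, -0.07 and 0.30. In this measure the brightest probe set of Zbtb20 was lowest on replicate 3 and that of Sox9 highest there. The second Sox9 probe set, 1424950_at, went the other way. It deviated by 0.17, 0.09 and -0.26, with an SD of 0.10, and was lowest on replicate 3.

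RefSeq start-site windows (GRCm38.p6, 250 bases before to 50 after each annotated start) were held for 6 of the 8 genes, 10 windows in all, and not for Sox9 and Nfib. They were searched on both strands for 4 motifs, chosen with the windows at hand. The single arm of an NFI site, TTGGCA, was in 1 of the 10 (Sox8) and in 14.1% of 32851 windows of the same length. The single arm of an RFX site, GTTGCC, was in 1 (Nfia) and in 12.5% of all. A core of SOX sites, ACAATGG, was in 2, against 3.66% of all windows, and the STAT palindrome TTCCNGGAA was in 1, against 1.15%. The SOX core matches fell in Rfx4 and Nfix, which each had more than 1 window and so more places for a match. Both windows with the SOX core are shown, with the matches in capitals (the second match of the Nfix window is the STAT palindrome). Besides Sox9, the SOX genes above background in these cells included Sox1, Sox2, Sox5, Sox6 and Sox21, and, near the limit, Sox8 and Sox10. Binding by any SOX factor was not tested. The matches describe the letters only.
Rfx4, chr10:84755798-84756097, plus strand: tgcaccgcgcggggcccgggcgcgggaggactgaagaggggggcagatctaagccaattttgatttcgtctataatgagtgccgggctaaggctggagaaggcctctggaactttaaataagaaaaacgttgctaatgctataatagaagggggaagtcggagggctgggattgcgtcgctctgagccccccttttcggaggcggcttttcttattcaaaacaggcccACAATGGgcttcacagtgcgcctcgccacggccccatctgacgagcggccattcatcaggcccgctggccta
Nfix, chr8:84775779-84776078, minus strand: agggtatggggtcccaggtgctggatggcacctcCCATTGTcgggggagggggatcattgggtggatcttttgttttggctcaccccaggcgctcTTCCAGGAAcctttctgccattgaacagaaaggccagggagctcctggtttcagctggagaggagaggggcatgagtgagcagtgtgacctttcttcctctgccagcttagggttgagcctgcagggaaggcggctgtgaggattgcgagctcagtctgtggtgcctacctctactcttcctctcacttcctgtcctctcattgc

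The other RFX genes give the family setting of Rfx4. Of 7 RFX genes measured, Rfx4 included, 6 were above background, against 58.3% of all genes. Of the 7, 1 had 4 or more probe sets, where 88.2% of all genes passed. A further 4 had 2 to 3, where 71.6% did, and 2 had 1, where 41.7% did. Rfx3, a regulator of cilium genes, was at 9.01 ± 0.35 log2 units and Rfx7 at 8.34 ± 0.27. Rfx5, which controls class II antigen presentation genes, was at 7.91 ± 0.41, Rfx1 at 6.85 ± 0.63 and Rfx2 at 6.44 ± 0.18. The largest limma adjusted p among the 6 was 0.0010. Rfx2 passed on 1 of its 4 probe sets. Taking the median over probe sets per gene, 5 of the 7 RFX genes passed. Rfx8 was at 3.08 ± 0.18, below the limit, and Rfx6 was not measured here.

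Genes on which Sox9 and Nfia act, together with general astrocyte genes, were above background in 14 of 14 cases, against 58.3% of all genes. By number of probe sets, 4 of the 14 had 4 or more, where 88.2% of all genes passed, 8 had 2 to 3, where 71.6% did, and 2 had 1, where 41.7% did. The list was chosen with earlier results of these data known. Apcdd1, Mmd2 and Zcchc24, reported in mouse and chick spinal cord as joint targets of Sox9 and Nfia at the start of gliogenesis, were at 7.67 ± 0.28, 6.87 ± 0.12 and 10.43 ± 0.26 log2 units. They passed on 5 of 6, 2 of 3 and 2 of 2 probe sets. Gfap, the astrocyte filament gene that NFI proteins bind, was at 12.63 ± 0.12 and passed on all 3 probe sets. Aldoc, a glycolytic enzyme gene of astrocytes, was at 12.63 ± 0.05 and Aqp4, the endfoot water channel gene, at 11.87 ± 0.10.

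The remaining astrocyte genes of that list also passed. Fabp7, a fatty acid binding protein gene of radial glia, was at 12.83 ± 0.02, and the gap junction gene Gja1 at 11.53 ± 0.15. The glutamate transporter genes Slc1a3 and Slc1a2 were at 10.95 ± 0.25 and 9.57 ± 0.18, and Glul, of glutamine synthesis, at 10.91 ± 0.39. S100b was at 9.57 ± 0.19 and Sparcl1, a secreted matrix protein gene, at 8.86 ± 0.10. Aldh1l1, a folate enzyme gene, was at 5.45 ± 0.34 (limma adjusted p = 0.00207). Taking the median over probe sets per gene, the count was 12 of 14.

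Other listed regulators of gliogenesis and the astrocyte lineage were above background in 22 of 24 cases, against 58.3% of all genes. Of the 24, 3 had 4 or more probe sets, where 88.2% of all genes passed. A further 11 had 2 to 3, where 71.6% did, and 10 had 1, where 41.7% did. For the JAK-STAT route, Il6st, Stat3 and Jak1, which encode the gp130 receptor chain, a transcription factor and a kinase, were at 12.03 ± 0.26, 10.41 ± 0.22 and 9.61 ± 0.19. Smad1, which relays BMP signals, was at 9.86 ± 0.34. Id1, Id3 and Id4, inhibitors of neurogenic bHLH factors, were at 11.35 ± 0.19, 12.10 ± 0.10 and 11.55 ± 0.10. These 7 genes all passed.

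Genes of the Notch route, which keeps precursors from becoming neurons, passed as well. Notch1 was at 9.47 ± 0.22 and its partner Rbpj at 9.38 ± 0.44. Their target genes Hey1, Hes1 and Hes5 were at 10.31 ± 0.25, 6.81 ± 0.05 and 5.49 ± 0.33 (limma adjusted p = 0.00241 for Hes5). The precursor factors Sox2 and Sox21 were at 11.42 ± 0.24 and 8.87 ± 0.19. Hopx and Npas3, expressed in radial glia and astrocytes, were at 11.15 ± 0.08 and 10.31 ± 0.34.

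Among further factors, Atf3, which acts with Nfia in a reported gliogenic set, was at 8.06 ± 0.27, and Runx2 of that set was not measured here. Klf15, Etv5 and Rorb, all found in astrocytes of mouse brain, were at 7.55 ± 0.54, 6.74 ± 0.44 and 6.05 ± 0.37. Lhx2, which holds back gliogenesis in the mouse hippocampus, was at 6.07 ± 0.33. The regulators that did not pass were Dbx2 and Nkx6-1, homeobox genes of the spinal cord and hindbrain, at 1.30 ± 1.60 and 0.65 ± 0.66.

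Genes reported to be repressed by Zbtb20 split. Pou3f2, a neurogenic factor that Zbtb20 represses in cortical precursors, was at 6.12 ± 0.10 and above background on all 3 probe sets, 2.06 log2 units over the limit (limma adjusted p = 0.000194). It is also counted among the 24 regulators. Afp, its target in the liver, was at 2.33 ± 2.39, reading -0.43, 3.89 and 3.51, and none of its 5 probe sets passed.

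The list of neurogenic factors, which act before the switch to glia, does not hold Pou3f2. Of its 11 measured genes, 1 had 4 or more probe sets, 6 had 2 to 3 and 4 had 1. In these classes 88.2%, 71.6% and 41.7% of all genes passed. The list gave 0 of 11 genes above background with limma, against 58.3% of all genes, and 0 at an unadjusted p below 0.05. With the limit at the 90th percentile the count was 2. Neurog1, Neurog2 and Neurod1 were at 2.20 ± 0.92, 0.84 ± 1.37 and 3.81 ± 0.24. Neurod2 and Atoh1 had means of 4.30 ± 0.15 and 4.21 ± 0.10, slightly over the limit, and did not pass.

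**Figure D5:**
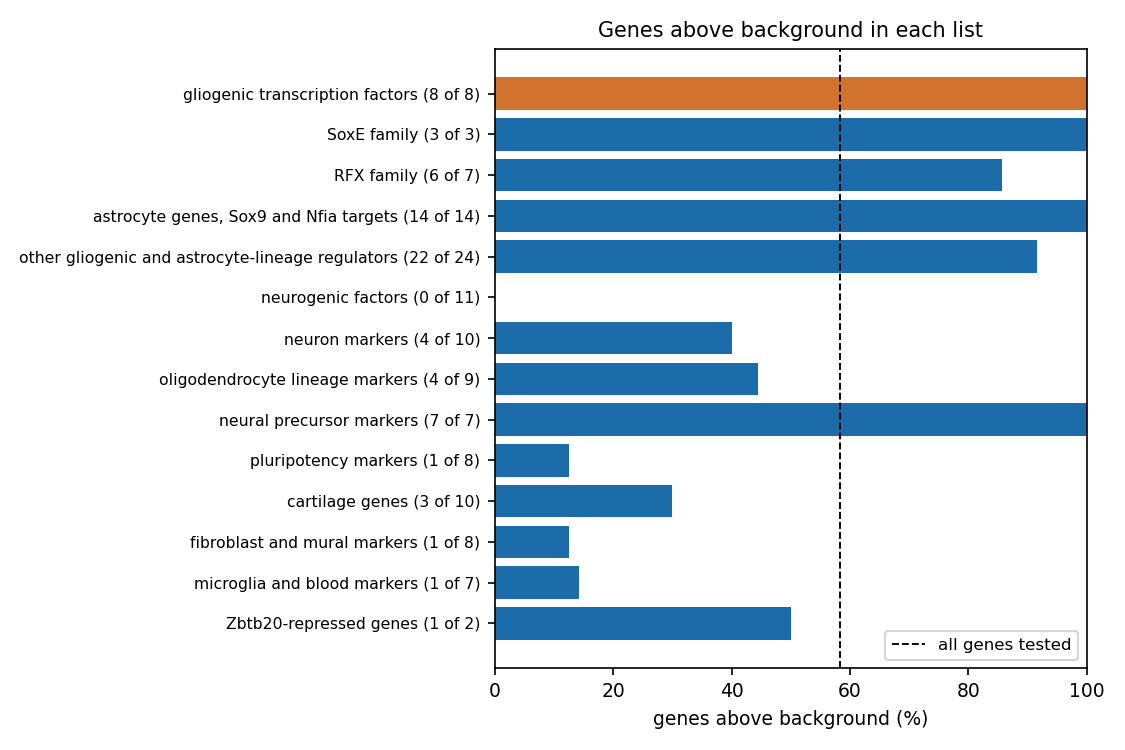
Percentage of the measured genes of each list that were above background (x axis), with the count in brackets. The dashed line is the share of all genes tested (58.3%). The 8 gliogenic factors, the 14 astrocyte genes and targets and the 7 precursor genes are at 100%, and the 11 listed neurogenic factors at 0.

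Markers of other cells bear on several members, since SoxE, NFI and RFX genes are expressed beyond astrocytes. All 7 measured neural precursor markers were above background, against 58.3% of all genes. By number of probe sets, 2 of the 7 had 4 or more, 4 had 2 to 3 and 1 had 1. In these classes 88.2%, 71.6% and 41.7% of all genes passed. The 7 precursor markers included Nes at 10.45 ± 0.60, Pax6 at 8.97 ± 0.15 and Vim at 13.47 ± 0.04. Taking the median over probe sets per gene, 3 of the 7 were above background. Of 9 oligodendrocyte lineage markers 4 passed, Olig2 at 8.29 ± 0.28, Pdgfra at 5.81 ± 0.08, Gpr17 at 6.62 ± 0.33 and Cnp at 11.72 ± 0.20. The myelin genes Mag and Mog were at 2.10 ± 0.23 and 1.14 ± 1.84, and Cspg4 was at 3.58 ± 0.35. Mbp, also a myelin gene, read 4.93, 4.39 and 4.33, over the limit on all 3 arrays, and did not pass (limma adjusted p = 0.0685, unadjusted p = 0.0403). With the limit at the 90th percentile 5 of the 9 markers passed. Which cells carried the Sox8 and Sox10 signal was not tested.

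Of 10 neuron markers 4 passed, against 58.3% of all genes. By number of probe sets, 2 of the 10 had 4 or more, 6 had 2 to 3 and 2 had 1. In these classes 88.2%, 71.6% and 41.7% of all genes passed. The 4 neuron markers were Tubb3 at 5.83 ± 0.65, Dcx at 5.09 ± 0.32, Rbfox3 at 6.66 ± 0.30 and Syt1 at 7.24 ± 0.12, while Snap25 was at 2.02 ± 0.50. The cartilage genes are relevant to Sox9, the main factor of chondrocytes. Col2a1, its classic cartilage target, was at 1.81 ± 1.99 and Acan at 2.14 ± 1.07, both below the limit. Of the 10 cartilage genes 3 passed, against 58.3% of all genes. Among these 10, 3 had 4 or more probe sets, 2 had 2 to 3 and 5 had 1. Those that passed were Col9a1 at 7.56 ± 0.05 and the SoxD factor genes Sox5 and Sox6 at 6.43 ± 0.57 and 9.34 ± 0.23, which are also expressed in neural precursors.

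Few markers of the remaining cell types passed, 1 in each list, against 58.3% of all genes. Many of the pluripotency genes (6 of 8) and microglia and blood genes (4 of 7) had 1 probe set, where 41.7% of all genes passed. Of the fibroblast and mural genes 7 of 8 had 2 to 3, where 71.6% did. Esrrb, at 4.93 ± 0.11, was the 1 of 8 pluripotency genes, with Pou5f1, Nanog and Zfp42 at 2.69 ± 0.91, 2.65 ± 0.67 and -0.72 ± 1.26. Acta2, a smooth muscle actin gene at 9.83 ± 0.21, was the 1 of 8 fibroblast and mural genes, with Col1a1, Col1a2 and Col3a1 at 2.85 ± 0.50, 3.72 ± 0.75 and 2.59 ± 0.69. Csf1r, at 5.34 ± 0.18, was the 1 of 7 microglia and blood genes, with Aif1, Itgam and Cx3cr1 at 1.79 ± 1.62, 1.98 ± 1.19 and 3.08 ± 0.18. Taking the median over probe sets per gene, each of these 3 counts was 0, and that of the neuron markers was 2.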

How the data were processed

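Total RNA of 3 samples was labelled with biotin and read on Affymetrix Mouse Genome 430 2.0 arrays, per the labels. The authors deposited a table of linear intensities, 1 value for each probe set on each array, made with GCOS 1.4 per the submitters' processing notes. Its settings and scaling are not stated there, no detection calls were at hand, and no probe-level values were used. The deposited intensities were turned to log2 without a pseudocount.

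The platform annotation gave 1 gene to 34958 probe sets, several to 932 (left out) and none to 9211. Entrez identifiers set against the GRCm38.p6 gene table changed 0 symbols, and 204 probe sets lay outside it. A gene took the probe set with the highest mean. The test was limma 3.58.1 in R 4.3.3 (one-sample, one-sided, eBayes) of log2 signal minus the array's limit, fitted over all 18117 genes other than the receptors, or over all 34873 probe sets. The number of arrays limits the precision. The procedure was tested on simulated data.

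The members and lists were chosen with earlier results of these data known. All members and all genes of the family, target, regulator and Zbtb20 lists are named. Of the other lists the first 3 measured genes are named, and those that passed where they were 5 or fewer. Further genes were named after their values were seen (Mag, Mog, Mbp, Neurod2 and Atoh1). A planned comparison of the members' protein sequences was not made. The fit on all receptor probe sets and the comparison of replicate 3 with the other arrays were chosen after seeing the data.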

Additional observations from a re-analysis of the deposited data

How the results depend on the processing

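Under 12 alternative settings each, the count of members above background was 7 to 8, that of astrocyte genes and Sox9 or Nfia targets 12 to 14, that of other regulators 22 throughout, and that of all genes 9158 to 10894. Member probe sets above background numbered 27 to 31, with 28 under the limit from every receptor probe set, an alternative added after seeing the data. Leaving out 1 replicate at a time gave 7 to 8 members, 14 targets, 22 regulators and 10236 to 10459 genes. Sox8 lost its call with the limit at the 99th percentile (0.28 log2 units over it) and without replicate 2 (0.60) or replicate 3 (0.53), and Nfic with the median of its probe sets (0.18). That median also moved Nfia to 4.51 log2 units over the limit, and Rfx4 to 2.66. Sox9, Nfia, Nfib, Nfix, Zbtb20 and Rfx4 kept their call under every alternative, with a largest limma adjusted p of 0.00332. A shift of each array to a common median changes nothing by construction, since the limit shifts with it. Over the alternatives, counts ran from 1 to 3 for the SoxE genes, 3 to 7 for precursor, 0 to 2 for neurogenic and for pluripotency, 2 to 4 for neuron, and 0 to 1 for fibroblast and for microglia genes. Without replicate 3, 4 member probe sets were gained and 1 was lost. A gene as near to the limit as Sox8 is at the edge of what 3 arrays can resolve. No paired analysis was possible because all samples belong to 1 group. Scan date or slide as a block was not used, since no source gives it.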
